A study of Mus musculus with 12 samples.

Results

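The chromatin around 9 AP-1 transcription factor genes, Jun, Junb, Jund, Fos, Fosb, Fosl2, Atf3, Batf and Maff, was described in hematopoietic stem cells (HSCs) of young and aged mice. Regions were selected on the deposited peak scores: every summit with a score of 3 or more in any of 12 lists was widened by 250 bp on each side, overlapping windows were merged, and regions that reached the gene body or the 10 kb on either side of it were taken as members. This gave 38 regions of 71006 in the whole catalogue, and 115 when the flank was extended to 50 kb. The genes were chosen with earlier results of these lists known, among them lower scores near Jun in aged cells, so the age values given here are a description and not independent evidence.

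AP-1 is a dimer of basic leucine zipper (bZIP) proteins. Jun proteins pair with each other or with Fos proteins, whereas Fos proteins need a Jun partner to bind DNA, and the dimers recognise the heptamer TGACTCA. Jun and Fos are immediate-early genes: growth factors, cytokines and stress switch them on within minutes through mitogen-activated protein kinases (MAPKs), and in HSCs they are associated with exit from quiescence and with the stress of cell isolation.

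ATAC-seq, in which a transposase cuts and tags open DNA, had been performed on HSCs sorted from bone marrow as Lin-, cKit+, Sca1+, Flk2-, CD48- and CD150+. There were 12 libraries in 4 groups of 3: WT at 3 months (Young WT), Mlkl-/- at 3 months (Young Mlkl-/-), WT at 18 months (Aged WT) and Mlkl-/- at 18 months (Aged Mlkl-/-), with no other allele and no treatment in the labels. Mlkl encodes the pseudokinase that carries out necroptosis. Each library was a pool of HSCs from several mice, with more animals per pool at 3 than at 18 months, so the p-values measure the spread between pools and sorts and not between single animals.

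The deposited values are −log10 q-values of peak summits, which depend on the depth and background of each library. The lists held 35714 to 61495 summits with a score of at least 3, from 35714 to 56368 in young and from 47032 to 61495 in aged libraries. For the tests, each list was therefore reduced to its 35714 highest summits. All regions of the catalogue were then ranked within each shortened list by their highest score. The ranks were turned into normal scores, the values that a standard normal distribution would give those ranks, so that higher means a stronger summit. Regions absent from a shortened list shared a tied rank and took the lowest value of that list, between −0.525 and −0.575. At weak regions, a change therefore depends in part on presence in the shortened lists. Ranks given in percent are instead places among the summits of the shortened list. The files hold no read counts, so depth is unknown and no counting interval can be given. In bulk lists, a lower score from fewer cells with an open site and from a less open site in each cell cannot be told apart. As a check of the labelled cells, summits lay within 1 kb of a start of Kit, Hlf and Meis1 in all 12 lists, of Procr in 9, Ly6a in 6, Mecom in 5 and Slamf1, which encodes CD150, in 0. Among markers that the gate removes, Cd3e, Cd5, Cd8a, Ms4a1 and Ly6g had a summit in 0 lists, Cd48 in 2, Itgam in 3 and Flt3 in 12. The start of Mlkl itself held a summit in all 12 lists, so these files do not check the genotype. At genes of the Y chromosome, 3 of the young lists and 0 of the aged ones held a summit, and the part of pool composition, of list length and of an unexplained tag in 9 of the file names in the age values was not tested except where values with these terms are given.

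The sequences on which the Jun and Fos results turn are shown first, from the reference genome (RefSeq, GRCm38.p6, the build of the files). RefSeq promoter sequences were found for 9 of 9 genes. The Jun promoter is the bases just before the start, on the minus strand at chr4:95052223-95052472, and the Fos stretch, on the plus strand at chr12:85473540-85473839, was placed so that it included the serum response element. Capitals mark matches, on either strand, to the searched letters: TGACTCA (AP-1), TGACGTCA (the cyclic AMP response element, CRE), the CArG box bound by serum response factor, and 3 strings added after the first search, namely TGACATCA and TTACCTCA, AP-1-related elements known from the Jun promoter, and TGACGT, the core that is also contained in the full CRE.
Jun promoter: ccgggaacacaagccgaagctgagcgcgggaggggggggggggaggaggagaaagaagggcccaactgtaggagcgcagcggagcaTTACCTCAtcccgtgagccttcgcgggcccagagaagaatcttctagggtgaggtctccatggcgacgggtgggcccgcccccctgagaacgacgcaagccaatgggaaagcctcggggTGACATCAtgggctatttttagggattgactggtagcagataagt
Fos promoter: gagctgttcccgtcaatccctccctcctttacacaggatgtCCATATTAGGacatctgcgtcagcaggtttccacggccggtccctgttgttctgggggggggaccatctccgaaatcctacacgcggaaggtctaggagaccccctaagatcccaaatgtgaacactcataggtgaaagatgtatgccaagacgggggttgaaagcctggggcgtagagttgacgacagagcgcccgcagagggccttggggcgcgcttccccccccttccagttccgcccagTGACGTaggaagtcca
In Jun, TGACATCA began 45 bases and TTACCTCA 164 bases before the start. Of 32851 RefSeq starts, 2.93% held the former and 0.728% the latter in the same 250 bases. In Fos, the CArG box CCATATTAGG began 309 bases and TGACGT 66 bases before the start. In windows of the same place and length, 1.705% of all starts held a CArG box and 5.48% held TGACGT. Neither stretch held TGACTCA or the full CRE, which were found in the 250 bases before 4.46% and 1.55% of all starts. Among the 9 genes, the full CRE was found at Maff, 29 bases before a start, and nowhere else in these windows. Around the summits themselves (100 bp on each side), TGACTCA occurred in 3 of 29 tested member regions (at Fosl2 and at 2 sites of Atf3) and in 8.29% of all tested regions. The CArG box occurred in 2, one within the Junb gene record and one 12.2 kb beyond the Fos start, and in 0.916% of all tested regions. TGACGT occurred in 7 of 29 and in 5.92% of all, the full CRE in 0 of 29 and in 1.31%, TGACATCA in 1 and in 1.29%, and TTACCTCA in 1 and in 0.631%, the last 2 both at the Jun promoter. These matches are letters in a window and do not show that a factor was bound.

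Each list held a summit at 10 to 12 of the 12 promoter regions of the AP-1 genes. Of the 38 regions, 12 were promoter regions, that is, they overlapped 1 kb on either side of an annotated start of their gene, and 19 of the 38 were detected in all 12 lists. In the whole catalogue 28.6% of regions were detected in all 12. By class, 7 of the 12 member promoter regions were detected in all lists, against 63.3% of all protein-coding promoter regions. Of the 26 other member regions, 12 were, against 18.3% of regions outside protein-coding promoters. Some of the 26 lie at starts of other protein-coding genes, which the 18.3% leaves out, so the sets are not alike. After lists were cut to equal length, 29 of the 38 (all 12 promoter regions and 17 others) were present in at least 3 lists and were tested. The 9 that were not tested had scores of at most 10.2, and 2 of them were seen in a single list, both in introns of Atf3. Just inside the score limit, the weakest member regions reached at most 4.09 and 4.41, at these same 2 Atf3 sites. Just outside it were 8 summits, the highest with 2.89 near Junb and 2.79 near Fos. By distance, the outermost region inside the 10 kb limit began 9482 bp from Fosb, and the first outside it began 10496 bp from Jun.

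**Figure D1:**
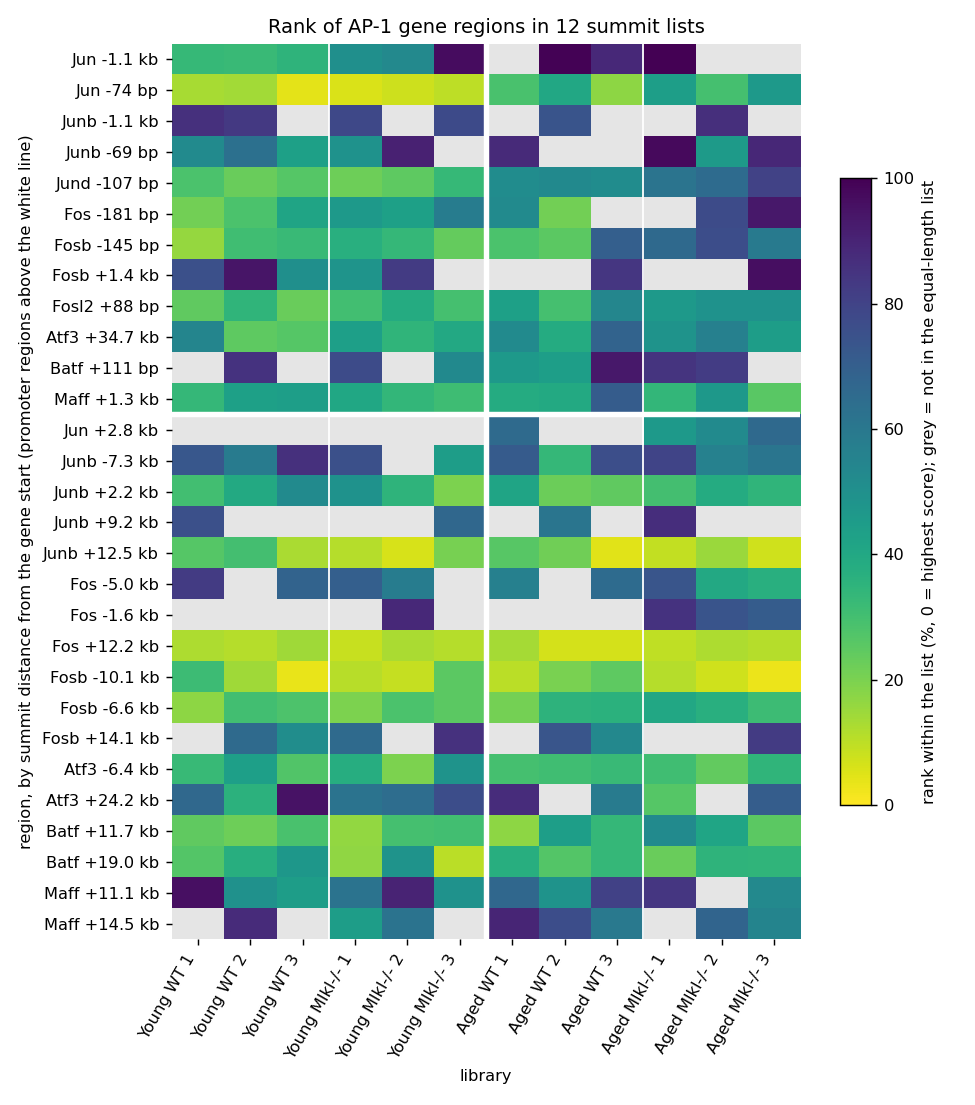
Rank of the 29 tested regions (rows) in each of 12 shortened summit lists (columns), in percent of the list, 0% being the highest score; grey, not in the shortened list. Promoter regions are above the white line, and young libraries are left of the thick vertical line. The Jun promoter (second row) lay between 4.2% and 14.0% in the 6 young lists and between 17.0% and 45.8% in the 6 aged lists.

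To ask how age relates to these regions, aged and young libraries were compared over both genotypes, with limma over 37886 regions. At an adjusted p under 0.01, 1029 regions (2.72%) passed, of which 379 were lower in aged cells. Among the member regions within 10 kb, 1 of 29 passed, the Jun promoter, and it was lower in aged cells. At an adjusted p under 0.05, 4 of 29 passed (one of them, the Jun gene end, present in no young list after shortening), against 7.75% of all regions. At an unadjusted p under 0.05 there were 7 of 29, against 22.1% of all regions, so by this count the 29 regions stood close to the catalogue as a whole. The member promoters and the other member regions differed in direction: 11 of 12 promoter regions had a negative age change, with a median of −0.377, whereas 7 of 17 others were negative, with a median of 0.0797. Over all promoter regions of protein-coding genes 57.9% were negative and the median was −0.0397. Over regions outside them 47.4% were negative, near the 41.2% of the 17 others, and the median was 0.0270. Some of the 17 lie at starts of other genes. Over all regions the median was −0.00725. Of the member promoters, 6 of 12 had an unadjusted p under 0.05 and 1 of 12 passed, against 11.5% and 0.517% of all protein-coding promoter regions. The 1 that passed is the Jun promoter, and both Jun promoter regions are among the 6. Lower scores near Jun were known when the genes were chosen, so these counts are a description and not a test of the set. The normal scores of 6 young and 6 aged lists did not overlap at 3 of the 12 promoter regions and at 0 of the 17 others, against 3.88% of all regions. The 3 were both promoter regions of Jun and the promoter region of Jund. The share among all protein-coding promoter regions was not computed.

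**Figure D2:**
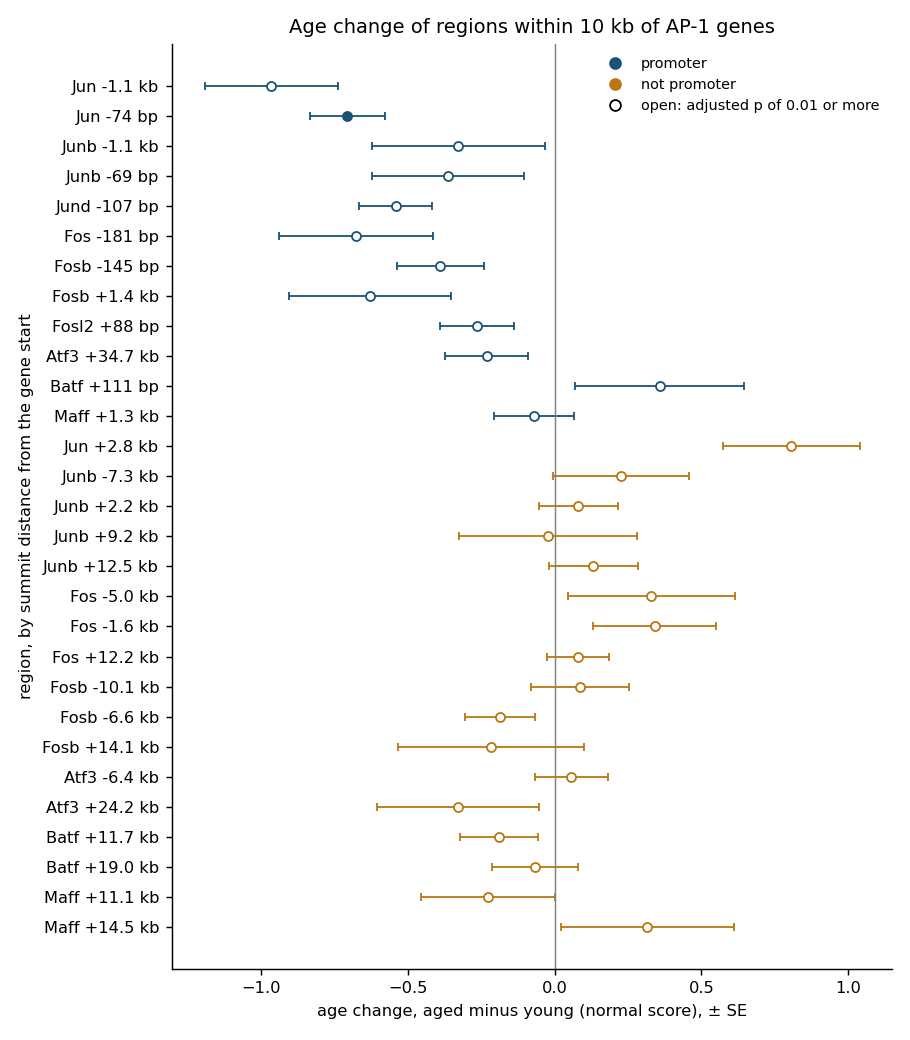
Age change of the 29 regions (aged minus young, normal score; bars, SE), promoter regions in blue and others in orange. The filled point, the Jun promoter at −0.707, is the only one past an adjusted p of 0.01; the single promoter right of 0 is Batf, at 0.358.

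Jun encodes the founding AP-1 subunit, which can bind and activate as a homodimer. Its promoter region (chr4:95052037-95052949, summit 74 bp before the start) scored 28.04, 27.7 and 38.6 in Young WT, 39.4, 39.0 and 24.9 in Young Mlkl-/-, 22.9, 16.5 and 26.99 in Aged WT and 17.1, 17.9 and 19.5 in Aged Mlkl-/-. The scores overlapped at the edges, but the ranks did not: the region stood in the top 4.2% to 14.0% of every young list and at 17.0% to 45.8% in aged lists. The normal score was 1.74 ± 0.213 in young and 1.03 ± 0.216 in aged libraries (SD, n = 6), a decrease of 0.707 (SE 0.127, limma adjusted p = 0.00212). The change was −0.541 in WT (adjusted p = 0.130) and −0.873 in Mlkl-/- (adjusted p = 0.0231), and neither passed on its own. The call held when any 1 library was left out. It was lost with list length as a covariate (−0.654, adjusted p = 0.0519), in the 9 libraries that carry the file-name tag (−0.747, adjusted p = 0.0171) and with Y-gene summits as a covariate (−0.720, adjusted p = 0.0202).

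A second Jun promoter region, with its summit 1119 bp before the start (chr4:95053076-95053673), scored 17.1, 17.5 and 14.1 in Young WT, 13.1, 14.6 and 3.59 in Young Mlkl-/-, 7.51, 6.75 and 8.40 in Aged WT and 7.68, 3.63 and 0 in Aged Mlkl-/-. The low young value came from Young Mlkl-/- replicate 3, the library with the shortest list, where the region stood at 96.5%, weaker than the 88.3% of Aged WT replicate 3. The ranks of the ages therefore overlapped, whereas the normal scores did not. After shortening, the region remained in 6 young and 3 aged lists, and the other aged libraries took their lowest value. The change was −0.966 (SE 0.228), just short of the threshold (adjusted p = 0.0143). It was past the threshold in only 3 of 25 settings. These were scores of at least 5 (adjusted p = 0.00699), lists of unequal length (0.00787) and regions in at least 6 lists (0.00930). Over all settings the limma adjusted p reached 0.105. The 151 bases around this summit, and the 151 bases around a summit 30.3 kb upstream of Jun that is described next, held none of the searched strings (both on the plus strand, chr4:95053266-95053416 and chr4:95082406-95082556).
Jun 1.1 kb upstream: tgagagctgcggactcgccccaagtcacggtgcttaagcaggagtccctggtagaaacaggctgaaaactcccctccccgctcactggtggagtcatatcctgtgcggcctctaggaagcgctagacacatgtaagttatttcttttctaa
Jun 30 kb upstream: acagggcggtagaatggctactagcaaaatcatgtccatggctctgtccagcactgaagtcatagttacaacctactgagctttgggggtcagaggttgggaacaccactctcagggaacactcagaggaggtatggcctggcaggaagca

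Not all of the Jun neighbourhood was lower with age. The region 30.3 kb upstream (chr4:95082196-95082856), in an intron of the long non-coding RNA gene Junos, scored 3.79, 6.75 and 0 in Young WT, 0, 0 and 7.07 in Young Mlkl-/-, 13.0, 22.4 and 15.3 in Aged WT and 16.3, 8.75 and 18.9 in Aged Mlkl-/-. Every aged score was above every young score, but the normal scores of the ages overlapped. Deposited scores depend on the depth of each library, and the share of all regions with such scores was not computed. Young Mlkl-/- replicate 3 held the region at 65.0% of its shortened list, stronger than the 70.7% of Aged Mlkl-/- replicate 2. The change was 0.990 (SE 0.259, adjusted p = 0.0247), which did not pass at 0.01. This region was singled out after its values were seen.

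At the other end of the gene, a region that spanned the annotated end of Jun (chr4:95048152-95049648, summit 364 bp inside the gene) was detected in none of the 6 young lists but in 6 of 6 aged ones. Aged WT libraries scored 12.01, 6.53 and 6.62 and Aged Mlkl-/- libraries 16.5, 11.6 and 14.1. Of the 71006 regions, 0.841% showed this 6 to 0 pattern in lists of full length, where aged lists are longer. After lists were made equal the region remained in 4 aged lists, and the fitted change was 0.806 (SE 0.233). Because it entered the tested set through aged lists alone, where it is high, its age test is not used as support. The first 150 bases beyond the gene end, which lie inside this region (minus strand, chr4:95048884-95049033), held none of the searched strings and were 42.7% G or C, against 61.2% in the Jun promoter printed above.
Jun gene end: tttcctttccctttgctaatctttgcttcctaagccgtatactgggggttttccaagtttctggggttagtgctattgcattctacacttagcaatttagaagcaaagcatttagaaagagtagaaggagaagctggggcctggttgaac
Fos showed a similar arrangement. A region that spanned its end (chr12:85477159-85478307) was absent from all 6 young lists, scored 6.81 and 6.25 in 2 Aged WT libraries and 0 in the other, and scored 8.73, 5.93 and 10.2 in Aged Mlkl-/-; it was present in too few shortened lists to be tested. In all, 5 of the 38 member regions were seen in aged lists only, against 21.1% of the catalogue, so detection in aged lists alone was not more frequent here than elsewhere. The other 3 were a second region in the 3′ part of Jun, one beyond the end of Fosb and one near Jund at the start of Iqcn. Of 395 regions that spanned a gene end in the catalogue, 3 (0.759%) had the 6 to 0 pattern.

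**Figure D3:**
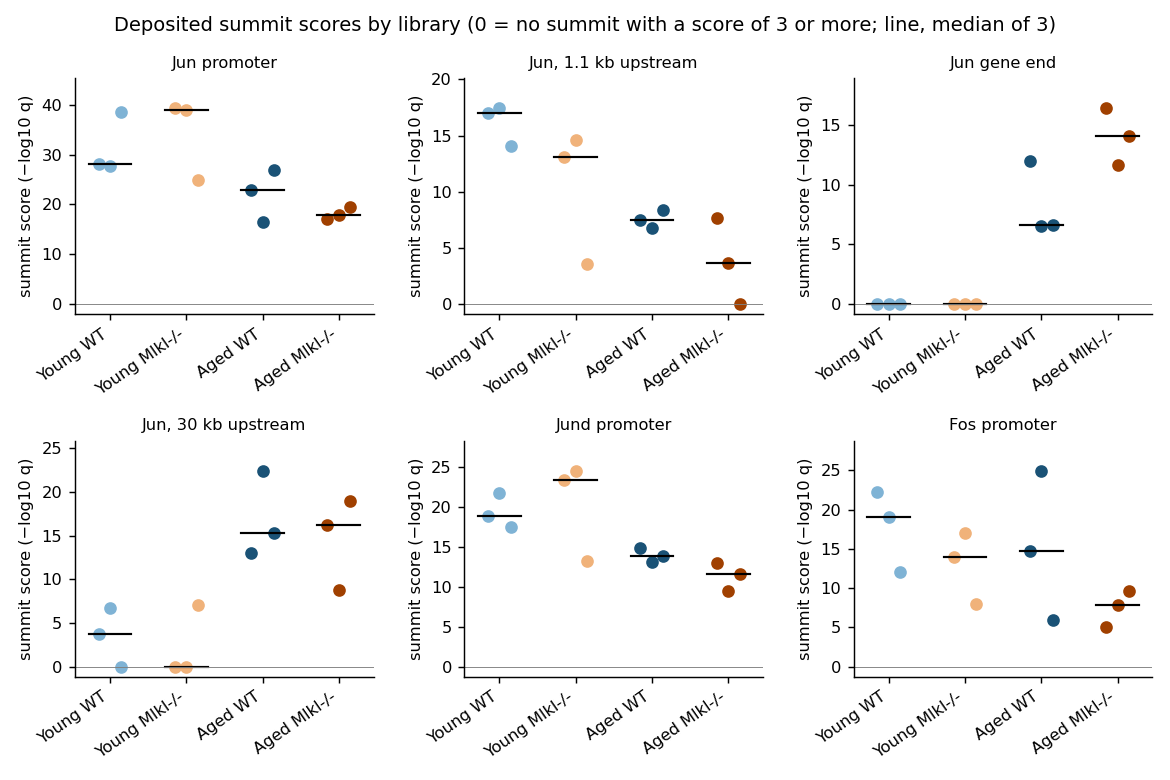
Deposited summit scores (−log10 q) in each library at 6 regions of Jun, Jund and Fos, by group; 0 means no summit with a score of 3 or more, and lines are medians of 3. The Jun and Jund promoter scores were lower in most aged libraries, and the Jun gene end had a summit in the 6 aged libraries only.

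Jund encodes a Jun protein that is made more steadily than the other Jun proteins. Its promoter region (chr8:70698334-70699551) scored 18.8, 21.7 and 17.4 in Young WT, 23.4, 24.5 and 13.2 in Young Mlkl-/-, 14.9, 13.1 and 13.8 in Aged WT and 12.9, 9.47 and 11.6 in Aged Mlkl-/-. In ranks, the young lists held it at 22.1% to 33.0% and the aged lists at 51.3% to 80.2%, with no overlap. The change was −0.542 (SE 0.124, adjusted p = 0.0121), which missed the threshold. It passed in only 2 of 25 settings, with lists of unequal length (adjusted p = 0.00863) and with regions in at least 6 lists (0.00923). Over all settings the limma adjusted p reached 0.0905.

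Junb, whose protein often opposes Jun in proliferation, had 2 weak promoter regions. The one at the start (chr8:84978511-84979083) scored 11.8, 9.76 and 11.6 in Young WT, 13.4, 8.66 and 0 in Young Mlkl-/-, 8.81, 5.83 and 5.73 in Aged WT and 8.02, 13.0 and 10.4 in Aged Mlkl-/-. The age change was −0.998 in WT and 0.269 in Mlkl-/-, and neither it nor the difference between genotypes passed (difference 1.27, SE 0.516, adjusted p = 0.965). The second, 1149 bp upstream, scored 0 to 7.07 in Young WT, 5.63 to 8.28 in Young Mlkl-/-, 4.24 to 9.51 in Aged WT and 3.93 to 8.48 in Aged Mlkl-/-, and its change was −0.328 (adjusted p = 0.565). Higher scores were found elsewhere at Junb: the region within the gene record 2185 bp past the start scored 9.73 to 19.9 in young and 14.95 to 24.1 in aged libraries, and its change was 0.0797 (adjusted p = 0.781). Both downstream regions lay at starts of other genes, among them Rnaseh2a, and cannot be assigned to Junb.

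Fos encodes the short-lived partner of Jun. Its promoter region (chr12:85473315-85474210) scored 22.3, 19.1 and 12.1 in Young WT, 14.0, 17.1 and 7.94 in Young Mlkl-/-, 14.7, 25.0 and 5.91 in Aged WT and 5.08, 7.89 and 9.63 in Aged Mlkl-/-. The ages overlapped, since the highest value of all was in Aged WT. The change was −0.678 (SE 0.261) and did not pass (adjusted p = 0.124). Within 10 kb of Fos, the highest scores were not at the promoter but at a region 12.2 kb past the start (chr12:85485680-85486374), with 23.8 to 35.2 in young and 28.2 to 42.1 in aged libraries and a change of 0.0804 (SE 0.106, adjusted p = 0.721). Regions 5026 and 1603 bp upstream had changes of 0.329 and 0.341 and did not pass.

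Fosb and Fosl2 (Fra-2) encode further Fos proteins. The Fosb promoter region (chr7:19309933-19310680) scored 25.8, 18.0 and 14.9 in Young WT, 16.8, 20.6 and 16.4 in Young Mlkl-/-, 23.2, 22.8 and 10.6 in Aged WT and 12.1, 8.001 and 15.6 in Aged Mlkl-/-, with a change of −0.390 (SE 0.149, adjusted p = 0.122). A region in one of its introns (chr7:19308038-19309003) scored 8.03, 6.03 and 10.2, then 13.5, 9.81 and 0, then 5.85, 5.59 and 8.61, and then 5.31, 5.04 and 9.51 in the same order of groups. Its change was −0.630 (SE 0.277, adjusted p = 0.188), and neither Fosb region passed. Among aged libraries, the shortened lists held the intron region only in Aged WT replicate 3 (at 84.3%) and Aged Mlkl-/- replicate 3 (at 96.5%). The other aged libraries entered the fit at their lowest value. At Fosl2, the promoter region (chr5:32134806-32136159) scored 20.7, 16.6 and 19.2 in Young WT, 19.4, 18.6 and 14.3 in Young Mlkl-/-, 17.3, 20.5 and 13.2 in Aged WT and 16.4, 12.3 and 18.5 in Aged Mlkl-/-. Its groups overlapped and its change was −0.265 (SE 0.127, adjusted p = 0.227).

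Atf3, Batf and Maff encode bZIP proteins outside the Jun and Fos families: Atf3 is a stress-induced factor, and Batf and the small Maf protein Maff lack an activation domain of their own. The Atf3 promoter region (chr1:191182842-191183802), which lay 5 bp from an inner start of the gene record, scored 11.3, 20.7 and 17.4 in Young WT, 14.8, 20.04 and 11.4 in Young Mlkl-/-, 14.7, 16.9 and 10.9 in Aged WT and 15.8, 10.9 and 20.01 in Aged Mlkl-/-; its change was −0.232 (SE 0.142, adjusted p = 0.356). Maff (chr15:79347065-79348530) scored 17.0, 13.9 and 11.6, then 15.8, 20.3 and 13.8, then 18.9, 16.8 and 10.4, and then 20.6, 12.8 and 29.1, with a change of −0.0707 (SE 0.137, adjusted p = 0.807), the smallest among the 12 promoters. Batf was the exception in sign. Its promoter region (chr12:85686400-85687476) scored 5.59, 6.80 and 0 in Young WT, 8.38, 5.99 and 8.81 in Young Mlkl-/-, 16.5, 15.3 and 7.82 in Aged WT and 9.36, 7.48 and 5.22 in Aged Mlkl-/-. The change was 0.358 over both genotypes (SE 0.288, adjusted p = 0.510), 0.882 in WT and −0.166 in Mlkl-/-, and none of these passed. In its introns, Batf also had 2 regions of 10.8 to 30.4 in all 12 lists, neither of which passed.

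**Figure D4:**
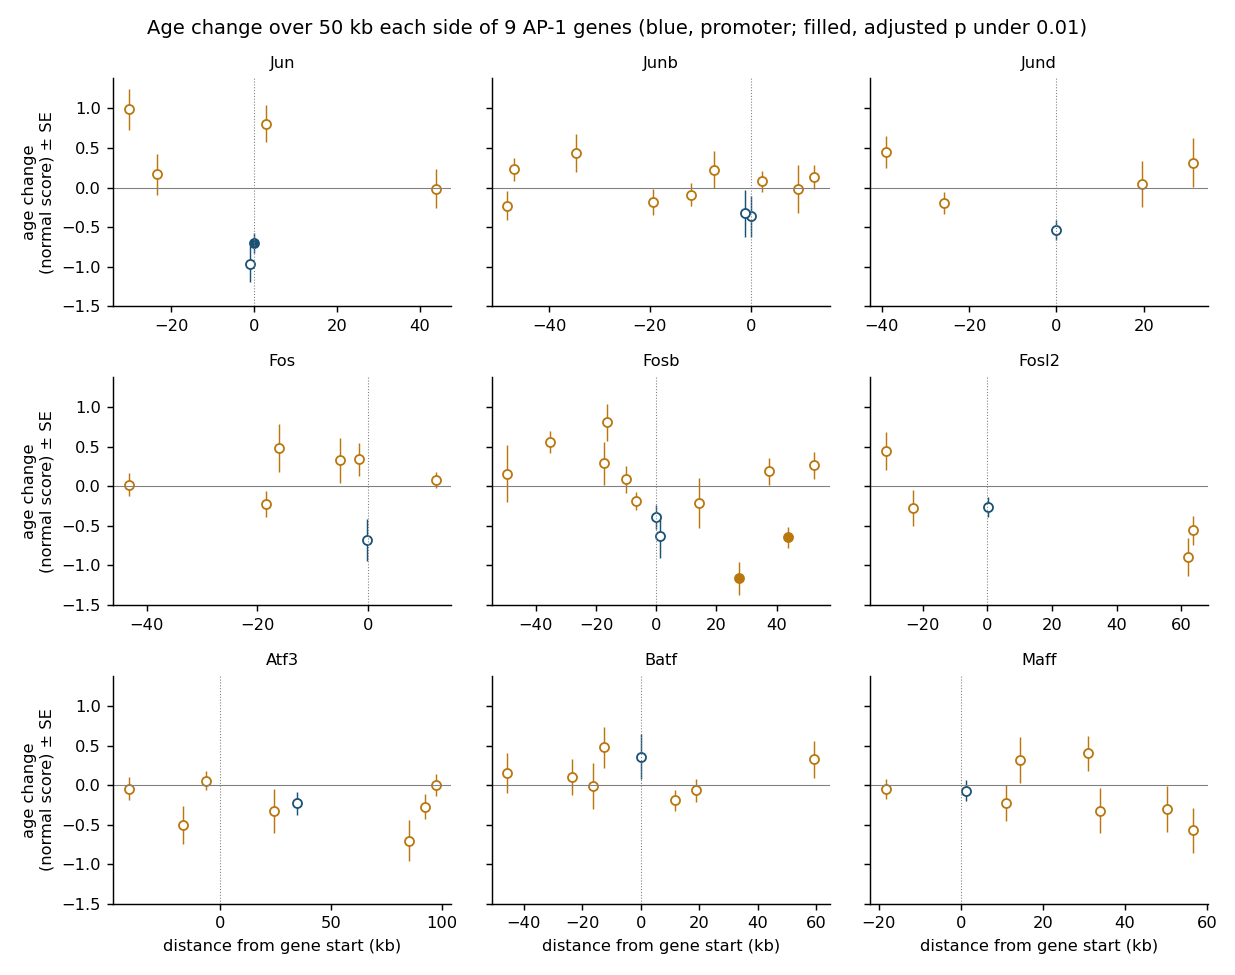
Age change (aged minus young, normal score; bars, SE) of the tested regions within 50 kb of each gene, against distance of the summit from the gene start in kb (negative, upstream); blue, promoter; filled, adjusted p under 0.01. Beside the Jun promoter, the filled points are 2 regions downstream of Fosb, at −1.16 and −0.645.

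Between 10 and 50 kb from the gene bodies lay 77 further regions, of which 42 were tested: 21 were higher and 21 lower in aged cells, with a median of 0.00686. Of the 71 tested within 50 kb, 3 passed, against 2.72% of all regions. The region at Rtn2 among them was tested through its young lists alone. Beside the Jun promoter these were 2 regions downstream of Fosb, in a gene-dense stretch where they lie at other genes. The first (chr7:19282306-19283396) covered the start of Rtn2 and scored 9.77, 10.8 and 13.1 in Young WT, 7.48, 10.9 and 6.87 in Young Mlkl-/-, 4.79, 4.79 and 3.31 in Aged WT and 0, 0 and 6.84 in Aged Mlkl-/-. It was lower in aged cells by 1.16 (SE 0.207, limma adjusted p = 0.00198). Every young score was above every aged score, and the share of all regions with such scores was not computed. The region was in no aged list after shortening, so it was tested through its young lists alone, where it is high. Its age test is therefore not used as support. The call was lost with scores of at least 5 (adjusted p = 0.0203), in the 9 tagged libraries (0.0163) and with list length (0.0555) or Y-gene summits (0.0113) as a covariate. The second (chr7:19265792-19266792), in an intron of Vasp, which encodes an actin regulator, scored 24.8, 29.9 and 23.5 in Young WT, 21.2, 29.2 and 19 in Young Mlkl-/-, 17.2, 16.1 and 11.1 in Aged WT and 16.1, 7.87 and 22.2 in Aged Mlkl-/-. Its change was −0.645 (SE 0.131, adjusted p = 0.00504), and it was past the threshold in 11 of 25 settings. It missed it without any 1 of 9 of the 12 libraries, at adjusted p from 0.0103 to 0.0190. On the other side of Fosb, the region at the start of the DNA repair gene Ercc1 (chr7:19344736-19345641) scored 12.4, 16.2 and 8.27 in Young WT, 17.3, 32.5 and 13.9 in Young Mlkl-/-, 28.6, 28.2 and 35.6 in Aged WT and 44.1, 23.8 and 41.6 in Aged Mlkl-/-, and its change of 0.562 did not pass (SE 0.138, adjusted p = 0.0178). Near Maff, 1 region in an intron of Tmem184b had the 6 to 0 pattern of the Jun gene end, with 4.08 to 8.35 in aged libraries, and a fitted change of 0.402 with no young list behind it; it was named after its values were seen.

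Within each genotype, 0 of 29 regions passed with limma, in WT (76 regions, 0.201% of all) or in Mlkl-/- (57 regions, 0.150%). At an unadjusted p under 0.05 there were 5 of 29 in WT, against 14.6% of all regions, and 6 of 29 in Mlkl-/-, against 14.4%. Of the 12 promoter regions 10 had a negative change in both genotypes, and Junb at the start and Batf had opposite signs. Over all protein-coding promoter regions 35.7% were negative in both. Of the 17 other regions, 5 were negative in both, 5 positive in both and 7 of opposite sign, and 33.5% of all regions were negative in both.

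To ask how loss of Mlkl relates to the same regions, Mlkl-/- and WT libraries were compared at each age. The number of regions that passed was 0 of 37886 (0%) at 3 months, at 18 months, over both ages and for the difference in age change between genotypes, the lowest adjusted p being 0.495, 0.660, 0.764 and 0.965. Among the 29 member regions 0 had an unadjusted p under 0.05 at 3 months (5.37% of all regions), 2 at 18 months (5.10%), 1 over both ages (6.22%) and 1 for the difference in age change (4.80%). The 2 at 18 months were higher in Aged Mlkl-/-. After shortening, both were in all 3 Aged Mlkl-/- lists, while most other libraries took their lowest value. They entered the tested set mainly through the group where they are high, so these tests are not used as support. The Jun gene end differed by 0.865 (SE 0.330, adjusted p = 0.871). The region 1603 bp upstream of Fos (chr12:85471949-85472537) scored 0 in all 3 Young WT libraries, 0, 8.95 and 0 in Young Mlkl-/-, 0, 0 and 7.06 in Aged WT and 9.31, 8.28 and 13.1 in Aged Mlkl-/-, a difference of 0.974 at 18 months (SE 0.296, adjusted p = 0.715). These differences did not hold up against the number of regions tested. At the Jun promoter, Mlkl-/- minus WT was 0.0976 at 3 months (SE 0.180) and −0.234 at 18 months (SE 0.180), within the spread of the libraries.

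**Figure D5:**
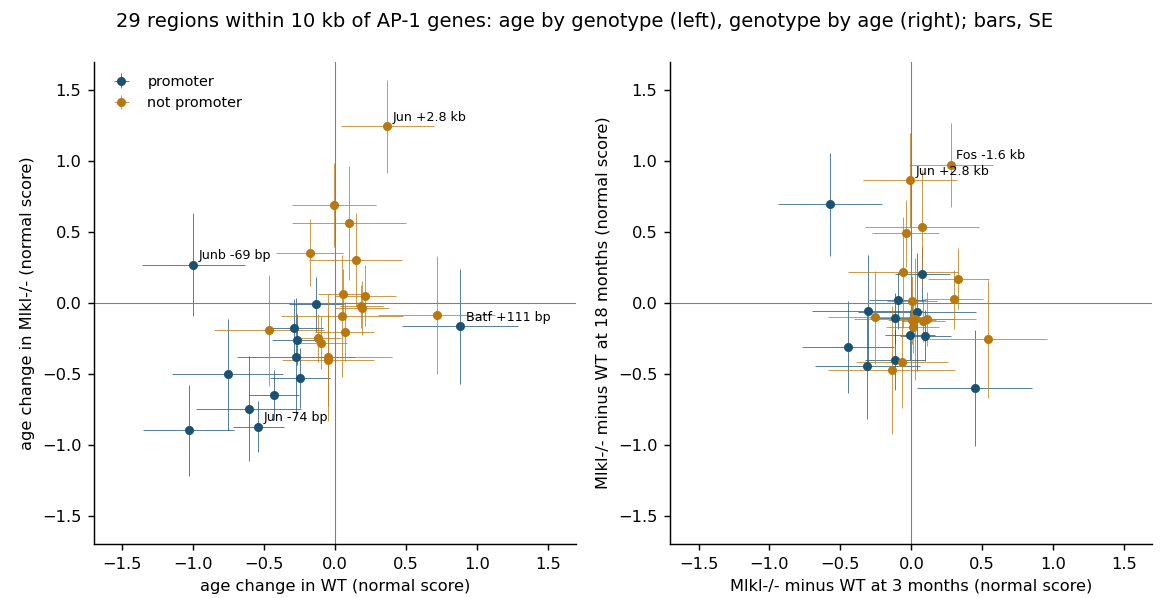
The 29 regions within 10 kb, with SE bars. Left, age change in WT against age change in Mlkl-/-; right, Mlkl-/- minus WT at 3 months against the same at 18 months (all in normal scores). In the left panel 10 of the 12 blue promoter points lie below 0 on both axes; in the right panel no region passed on either axis.

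Other bZIP genes and the MAPK pathway were described in the same way. Of 15 related bZIP genes with 57 tested regions, 2 regions passed, where 2.72% of all regions did, both lower in aged cells and both in introns of Bach2, a repressor that competes for AP-1-like sites in lymphoid cells. The first (chr4:32250950-32251510) was detected in 6 young and 3 aged lists and was lower by 1.28 (SE 0.223, adjusted p = 0.00179). The second (chr4:32279708-32280278) had median scores of 36.8 in young and 17.4 in aged libraries and was lower by 0.860 (SE 0.135, adjusted p = 0.000835). Of the 57 regions 25 were higher and 32 lower, with a median of −0.0845. Of 19 MAPK pathway genes with 64 tested regions, 0 passed (limma; 2 at an adjusted p under 0.05, against 7.75% of all regions), 28 were higher and 36 lower, and the median was −0.0104. The 2 were one of 2 promoter regions of Dusp1, which encodes a MAPK phosphatase and is itself an immediate-early gene, at −0.549 (adjusted p = 0.0423; the other, at an upstream start, was at −0.0117, adjusted p = 0.977), and a region 5.54 kb from a start of Elk4, a ternary complex factor that works with serum response factor, at 0.494 (adjusted p = 0.0341).

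The regions whose normal scores followed the Jun promoter most closely over the 12 libraries, out of 37815 more than 50 kb from any member gene, were in an intron of Entpd3 (Pearson r = 0.952), 20.96 kb from the start of Cxcr4 (0.936), 56.4 kb from that of Cd247 (0.935), in an intron of Rnf220 (0.933) and 0.285 kb from that of Calm4 (0.929). These values describe 12 libraries in 2 age groups that share their lists, and they were the highest of a large number.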

How the data were processed

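ATAC-seq reads of 12 HSC libraries had been mapped to mm10 with Bowtie2 (version 2.5.3) and summits called in each library with MACS2 (version 2.2.7.1). The deposited lists give each summit with its score, the −log10 q-value that the authors obtained. The lists hold no counts, so edgeR, which the study's methods name (version 3.30.3), could not be used. Only summits that scored 3 or more on the autosomes and sex chromosomes entered the lists. Genes and starts were from GENCODE for mm10. Lists were cut to 35714 summits, and regions of the catalogue were ranked within each list by their highest score. Normal scores of regions in at least 3 lists were fitted in limma (version 3.58.1, R 4.3.3) with 4 groups of 3 and 7 contrasts. Trended eBayes was used, with Benjamini-Hochberg adjustment over 37886 regions and a threshold of 0.01. The fit was also run on simulated lists, with changes planted only in regions detected in most lists. That run does not cover weak regions, and its outcome is not given here. The members, lists and motifs were chosen with earlier results of these data known. Named were all promoter regions, regions within 10 kb at an unadjusted p under 0.05 for age or genotype, and from 10 to 50 kb those that passed or had the 3 lowest p-values. Regions most like the Jun promoter were the 5 with the highest r. Same-numbered replicates of different groups did not deviate together. Some marker genes of the cell check are not reported here.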

Additional observations from a re-analysis of the deposited data

How the results depend on the processing

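The count of 1 passing region within 10 kb became 2 with scores of at least 5, 4 with lists of unequal length, 3 with regions in at least 6 lists and 4 at an adjusted p under 0.05, and 0 in the 9 tagged libraries, with list length as a covariate and with Y-gene summits as a covariate. The count of 3 within 50 kb became 9 with unequal lists, 5 with at least 6 lists, 10 at 0.05 and 0 in the tagged libraries and with either covariate. For the related bZIP genes 2 became 1 in the tagged libraries, 1 with list length, 0 with Y-gene summits and 5 at 0.05. At 0.05, age in Mlkl-/- went from 0 to 1 and the MAPK genes from 0 to 2. The cause of these shifts was not tested, except that fewer libraries or a laxer threshold act by construction. Small changes turned sign at Junb 1149 bp upstream (0.0595 with list length) and at Maff (0.00457 in the tagged libraries and −0.116 to 0.00722 when 1 library was left out, the latter without Aged WT replicate 3). Same-numbered samples correlated from −0.301 to 0.128 (1 of 18 pairs over 0.1), so the numbers were taken as names only. Of 36 differently numbered pairs, 5 were over 0.1. Libraries without the file-name tag (Young Mlkl-/- replicate 2, Aged WT replicate 3 and Aged Mlkl-/- replicate 1) gave 0.307, 0.101 and 0.110. Tagged libraries gave 0.267 (Young Mlkl-/- replicate 3 with Aged WT replicate 2) and 0.108 (Aged WT replicate 2 with Aged Mlkl-/- replicate 3). The part of the tag in this was not tested. With a replicate block the counts were 1 within 10 kb, 2 within 50 kb, 2 for the bZIP genes and 0 for the other comparisons. The lists give no depth, so a weak or absent summit cannot be told from a shallow library.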
